A study of Mus musculus with 5 samples.

Results

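The 10 genes described here encode factors of the pluripotency network: Pou5f1, Nanog, Sox2, Esrrb, Klf4, Zfp42, Tfcp2l1, Dppa4, Lin28a and Prdm14. They were taken by symbol from the RefSeq annotation of the mouse genome (GRCm38, mm10) and are 10 of the 21000 protein-coding genes with a curated mRNA start. A DNaseI hypersensitive site (DHS) was counted for a gene when its edge lay within 1 kb of any annotated transcription start site (TSS) of that gene, called a promoter site here. It was also counted when it lay inside the gene or up to 100 kb from its TSS and the gene had the nearest curated start, called another site here. By this rule 88 of 135173 listed sites belonged to the 10 genes.

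DNaseI-seq maps chromatin that the enzyme can reach, and the data are 1 list of DHSs for each of 5 purified populations on the way from mouse embryonic stem (ES) cells to macrophages. All populations came from the same kind of starting culture, an ES cell line of strain 129 that carries a Brachyury-GFP reporter (Bry:GFP). It was kept on mouse embryonic fibroblast feeders. Mesoderm cells (MES) were sorted as Bry:GFP+ Flk1-, hemangioblast cells (HB) as Bry:GFP+ Flk1+, hemogenic endothelium (HE) as Tie2+ cKit+ CD41-, hematopoietic progenitors (HP) as CD41+, and macrophages (MAC) as CD11b+. MES and HB came from embryoid bodies, and Flk1+ cells were cultured further with cytokines to give HE and HP. MAC were differentiated from CD41+ cells, so culture conditions changed with the stage. The lists held 21949 (MES), 24729 (HB), 33305 (HE), 17734 (HP) and 37456 (MAC) sites, with median widths of 800, 900, 1200, 900 and 600 bp. The sites carry no count, score or depth, so a site is either listed or not, and its width is the only graded value. With 1 list per stage no replicate error and no test of a difference between stages could be given, and the MAC label names 2 replicates in its single list. A missing site means that no site was called at the depth and threshold of that list, and a site carried by few cells of a population cannot be told apart from a weak site in all of them. Undifferentiated ES cells were not analysed here.

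Pluripotency is the ability of ES cells to form all tissues of the embryo, and it is held by transcription factors that bind near each other's genes. OCT4 (from Pou5f1) and SOX2 bind DNA as a pair, NANOG works with them, and ESRRB, KLF4, TFCP2L1 and PRDM14 support the naive, ground state of the network. As ES cells differentiate through mesoderm and beyond, this network is switched off over time, and the study still mapped OCT4 binding in MES. KLF4 is used again in other tissues, including monocytes and macrophages.

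The number of the 10 genes with a promoter site was 7 (MES), 8 (HB), 6 (HE), 3 (HP) and 1 (MAC). Over all 21000 genes the share with a promoter site was 57.2% (MES), 58.9% (HB), 61.7% (HE), 50.1% (HP) and 50.2% (MAC). With every listed site counted, the 10 genes were thus above the share of all genes in MES and HB, near it in HE and below it in HP and MAC. A promoter site in MES or HB with none in MAC was found for 8 of the 10 genes, against 13.8% of all genes. With HP also lacking the site there were 6 of 10, which were Pou5f1, Nanog, Sox2, Esrrb, Zfp42 and Prdm14, against 9.06% of all genes. A promoter site in all 5 stages was found for 1 of the 10, Klf4, against 43.4% of all genes, and none in any stage for 1, Dppa4, against 32.4%. These counts depended on how wide a site had to be. When sites narrower than the median of their own list were dropped, the number with a promoter site was 4 (MES), 3 (HB), 4 (HE), 1 (HP) and 1 (MAC), against 44.2%, 49.6%, 53.5%, 38.9% and 41.4% of all genes, so that the 10 genes were below all genes in each stage and the excess in MES and HB was lost. The number with a promoter site in MES or HB and none in MAC was then 3 (Nanog, Tfcp2l1 and Lin28a), against 13.1%. With every list shortened to the length of the HP list by dropping its narrowest sites, the genes stayed above the share of all genes in MES (7 against 54.2%) and HB (7 against 54.1%) and were below it in HE (4 against 53.2%). Here 7 of the 10 genes had a promoter site in MES or HB and none in MAC, against 19.5% of all genes.

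**Figure D1:**
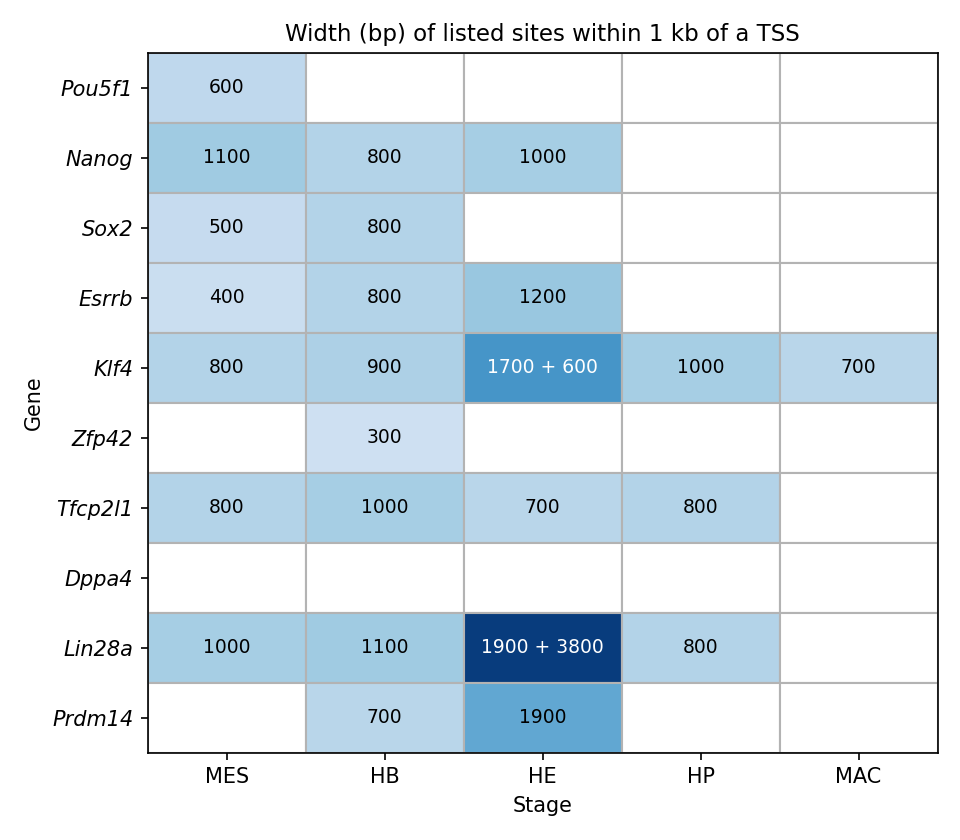
Width in bp of each listed site within 1 kb of a TSS, for the 10 genes (rows) in the 5 stages (columns). A blank cell has no listed site, a plus sign joins 2 sites, and darker blue stands for more base pairs. The filled cells number 7 (MES), 8 (HB), 6 (HE), 3 (HP) and 1 (MAC).

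Followed from stage to stage, 6 of the 7 genes with a promoter site in MES still had one in HB. The gene that had none in HB was Pou5f1, and Zfp42 and Prdm14 appeared. From HB to HE 6 of 8 kept a promoter site, and Sox2 and Zfp42 did not. From HE to HP 3 of 6 kept it, and Nanog, Esrrb and Prdm14 did not. From HP to MAC 1 of 3 kept it, and Tfcp2l1 and Lin28a did not. After HB no gene of the 10 gained a promoter site that the preceding stage lacked when all listed sites within 1 kb were counted. With a reach of 100 bp, Klf4 had a promoter site in HP that HE lacked. Without sites narrower than the median of their list, Esrrb and Prdm14 had a promoter site in HE that HB lacked, and with lists of equal length Tfcp2l1 had one in HP that HE lacked. Over all genes the share that kept a promoter site was 96.3% from MES to HB, 94.8% from HB to HE, 79.9% from HE to HP and 89.4% from HP to MAC, so the step with the lowest share over all genes, into the shortest list, was HE to HP.

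Pou5f1 encodes OCT4, the POU-domain factor at the centre of the network. It lies at chr17:35506032-35510777 on the plus strand and had 1 site in all 5 lists, in MES. That site, at chr17:35504592-35505191, was 600 bp wide, and 31.7% of the MES sites were narrower. Its middle lay 1141 bp upstream of the TSS and its nearer edge 841 bp, so it counted as a promoter site although no site covered the start itself. With a reach of 100 bp in place of 1 kb, Pou5f1 had no promoter site in any stage. Of the 21000 genes, 79.5% had as many sites or more over the 5 lists, where the median gene had 5. The middle 300 bases are shown because this is the only site of any list that the rule assigned to Pou5f1. Capitals mark a GATA motif (AGATAA), which 23% of all merged regions hold in their central 500 bp.
Pou5f1 site, chr17:35504742-35505041, plus strand: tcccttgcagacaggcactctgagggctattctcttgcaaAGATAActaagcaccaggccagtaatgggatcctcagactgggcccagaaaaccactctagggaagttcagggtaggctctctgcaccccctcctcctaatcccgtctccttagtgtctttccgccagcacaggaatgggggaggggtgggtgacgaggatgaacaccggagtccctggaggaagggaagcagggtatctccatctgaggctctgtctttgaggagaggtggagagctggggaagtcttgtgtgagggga

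Nanog encodes a homeodomain factor that sustains self-renewal. It lies at chr6:122707489-122714633 on the plus strand and had 15 sites, of which MES listed 4, HB 5, HE 3, HP 1 and MAC 2. Of all genes 9.04% had as many or more. The promoter site covered a start in MES (1100 bp wide), HB (800 bp) and HE (1000 bp) and was not listed in HP or MAC. Of the sites in the same list, 76.2% were narrower than it in MES, 34.5% in HB and 31.4% in HE. The promoter site was therefore among the wider sites in MES and below the middle of the list in HB and HE. A region 4.66 kb upstream followed the same stages, with widths of 900 bp (MES), 1300 bp (HB) and 1000 bp (HE). A region 8.37 kb downstream was listed in MES (700 bp) and HB (800 bp). A region 12.6 kb downstream was listed in HB (500 bp) and MAC (200 bp).

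The remaining Nanog region lay 37.9 kb upstream, in intergenic DNA, and was listed in every stage, with widths of 700 bp (MES), 900 bp (HB), 800 bp (HE), 800 bp (HP) and 300 bp (MAC). Of 51 merged regions of the 10 genes it was the only 1 found in all 5 lists, where 500-bp windows around the middles of sites were joined when they overlapped by at least 25% of their length. No region of the 10 genes was in all 5 lists under either stricter choice of width. The Nanog site was below the median width in every list but HB. With lists of equal length it was dropped from MAC (11.4% of sites narrower) and HE (16.9%). HP, which listed no promoter site of Nanog, listed this region and no other of the gene. The upstream 250 bases of the promoter and the middle of the constant region are shown because their stages differ at the same gene. Capitals in the promoter mark a SOX motif (CATTGT, here on the opposite strand at bases 184 to 189) and a KLF motif (GGGNGTGG, bases 241 to 248). Capitals in the constant region mark a motif of CTCF, a factor of chromatin loops and boundaries (searched as CCANNAGNNGGC, bases 55 to 66). Of 32851 RefSeq promoters, 10.7% held the SOX motif and 15.9% the KLF motif in the same 250 bases. The CTCF motif was in the central 500 bp of 7.13% of all merged regions and of 3 of the 51.
Nanog promoter, chr6:122707239-122707488, plus strand: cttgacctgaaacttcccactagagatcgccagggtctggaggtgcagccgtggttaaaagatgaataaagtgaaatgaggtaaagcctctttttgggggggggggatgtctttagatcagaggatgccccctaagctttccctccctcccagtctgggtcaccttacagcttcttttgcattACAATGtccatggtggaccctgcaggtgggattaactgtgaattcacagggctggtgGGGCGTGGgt
Nanog region in all stages, chr6:122669490-122669789, plus strand: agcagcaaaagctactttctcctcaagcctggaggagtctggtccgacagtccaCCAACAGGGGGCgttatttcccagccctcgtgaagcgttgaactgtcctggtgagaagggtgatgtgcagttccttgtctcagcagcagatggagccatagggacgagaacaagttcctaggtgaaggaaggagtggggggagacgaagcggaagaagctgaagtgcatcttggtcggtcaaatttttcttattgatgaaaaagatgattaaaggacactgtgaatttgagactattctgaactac

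Sox2 encodes the HMG-box partner of OCT4 and is also used in neural and endodermal cells. It lies at chr3:34649995-34652461 on the plus strand, within an intron of the noncoding gene Sox2ot, and had 8 sites, 2 in MES, 2 in HB, 4 in HE and none in HP or MAC. The promoter site covered the TSS in MES, 500 bp wide, and in HB, 800 bp wide. The 4 HE sites all lay outside 1 kb, at 7.77 kb upstream (600 bp) and at 2.98 kb (1100 bp), 14.9 kb (1500 bp) and 92.8 kb (900 bp) downstream. The site at 2.98 kb overlapped the 3′ end of the gene. Sox2 was therefore listed in HE by sites more than 1 kb from its TSS alone. The HE site at 14.9 kb overlapped the HB site at 14.4 kb (500 bp). The MES site 7.26 kb upstream (300 bp) did not overlap the HE site 7.77 kb upstream.

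Klf4 encodes a zinc-finger factor that binds GC-rich DNA. It lies at chr4:55527137-55532475 on the minus strand and had 18 sites, the most of the 10 genes, of which MES listed 3, HB 4, HE 6, HP 1 and MAC 4. Of all genes 5.7% had as many or more. Its promoter site was 800 bp wide (MES), 900 bp (HB), 1000 bp (HP) and 700 bp (MAC). The MES, HB and HP sites covered the TSS, and the MAC site began 32 bp upstream of it. In HE no site covered the TSS, and the promoter was counted through sites on either side of it, 1700 bp wide with its edge 768 bp downstream and 600 bp wide with its edge 633 bp upstream. With a reach of 100 bp Klf4 lost its HE call. The HE interval downstream covered a coding exon of Klf4 where MES (300 bp), HB (800 bp) and MAC (100 bp) also had a site.

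Within 100 kb, and leaving out promoter sites, the Klf4 sites outside the gene lay downstream in MES, HB and HE and upstream in MAC. A region 17.5 kb downstream was listed in MES (600 bp), HB (800 bp) and HE (1200 bp), and a region 54.4 kb downstream in HB (400 bp) and HE (600 bp). Regions 59.7 kb (800 bp) and 68.1 kb (1000 bp) downstream were listed in HE. MAC listed none of these. Apart from its 100 bp site in the coding exon, 2.12 kb downstream of the TSS, the other MAC sites lay 9.08 kb upstream, 1100 bp wide and wider than 90.4% of the MAC list, and 91.1 kb upstream, 700 bp wide, and neither was in another list. Past the 100 kb limit the division did not hold, since HE listed a Klf4 site 119 kb upstream that overlapped a MAC site, and HB listed another 132 kb upstream.

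The Sox2 and Klf4 promoters are shown with every CpG in capitals, since the 2 genes had the most CpGs of the 8 members with a promoter sequence in the 250 bases before the start and differed in their stages. Sox2 had 27 CpGs at 72% GC and Klf4 32 at 74%, while the median over 32851 promoters was 6 CpGs at 52.4% GC. By contrast the Nanog promoter above had 3 CpGs at 52% GC.
Sox2 promoter, chr3:34649745-34649994, plus strand: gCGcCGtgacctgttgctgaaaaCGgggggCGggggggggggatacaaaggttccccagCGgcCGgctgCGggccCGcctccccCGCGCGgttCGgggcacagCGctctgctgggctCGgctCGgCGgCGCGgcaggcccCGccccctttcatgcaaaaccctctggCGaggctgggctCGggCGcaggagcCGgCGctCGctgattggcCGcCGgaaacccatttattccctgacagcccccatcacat
Klf4 promoter, chr4:55532476-55532725, minus strand: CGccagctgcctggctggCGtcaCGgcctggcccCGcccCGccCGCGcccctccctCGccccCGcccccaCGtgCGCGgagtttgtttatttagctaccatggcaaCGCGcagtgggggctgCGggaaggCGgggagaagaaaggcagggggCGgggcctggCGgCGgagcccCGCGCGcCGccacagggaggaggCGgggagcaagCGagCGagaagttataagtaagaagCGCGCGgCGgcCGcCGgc

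Esrrb encodes an orphan nuclear receptor of the naive network. It lies at chr12:86361117-86521628 on the plus strand and had 16 sites, of which MES listed 4, HB 4, HE 6, HP 2 and MAC none. Of all genes 7.7% had as many or more. No list held a site within 1 kb of its first curated start. The promoter sites lay at the curated start inside the gene, 60.5 kb further along, and were 400 bp (MES), 800 bp (HB) and 1200 bp (HE) wide. Within the introns between these starts, a region 34.3 kb past the first start was listed in HB (1100 bp), HE (1500 bp) and HP (1000 bp). The next, at 37.8 kb, was listed in MES (500 bp), HB (900 bp), HE (1200 bp) and HP (300 bp). A region at 42 kb was listed in MES (500 bp) and HE (1300 bp) and held a CTCF motif. HP thus listed 2 intronic Esrrb regions and no promoter site. The other Esrrb regions were each in 1 list, in MES at 32 kb upstream, in HE at 13.1 and 55.4 kb upstream and in HB at 72.3 kb downstream of the first start.

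Tfcp2l1 encodes a CP2-family factor that drives naive self-renewal. It lies at chr1:118627923-118685168 on the plus strand and had 5 sites, which equals the median over all genes. Its promoter site covered a start in MES (800 bp), HB (1000 bp), HE (700 bp) and HP (800 bp). In MAC only a site 60.1 kb upstream was listed, 300 bp wide and inside an intron of Clasp1. Tfcp2l1 and Lin28a were thus the genes of the 10, beside Klf4, with a promoter site in HP. The HE site of Tfcp2l1 was narrow for its list, with 9.85% of sites narrower, and was absent once the HE list was shortened by width to the length of HP.

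Zfp42, or Rex1, encodes a zinc-finger protein widely used as a marker of the naive state. It lies at chr8:43295067-43307009 on the minus strand, and its promoter site was listed in HB alone, 300 bp wide. Only 0.202% of HB sites were narrower, and the site was lost under both stricter choices of width. Away from the promoter Zfp42 had 2 sites, both 500 bp wide and both in MAC, at 44.2 and 61.7 kb upstream. The Zfp42 and Tfcp2l1 promoters are shown because of the motifs of pluripotency factors in them. Capitals mark in Zfp42 the octamer (ATGCAAAT, on the opposite strand at bases 65 to 72), the word bound by OCT4, and a KLF motif (bases 176 to 183), and in Tfcp2l1 KLF motifs at bases 190 to 197 and 204 to 211. As an exact word the octamer was in 1.6% of all promoters and, among the members with a promoter sequence, in Zfp42 alone. The KLF motif was found in the promoters of Pou5f1, Nanog, Zfp42 and Tfcp2l1, and in 15.9% of all promoters. Members were counted by gene and the shares by promoter, and some genes have several promoters.
Zfp42 promoter, chr8:43307010-43307259, minus strand: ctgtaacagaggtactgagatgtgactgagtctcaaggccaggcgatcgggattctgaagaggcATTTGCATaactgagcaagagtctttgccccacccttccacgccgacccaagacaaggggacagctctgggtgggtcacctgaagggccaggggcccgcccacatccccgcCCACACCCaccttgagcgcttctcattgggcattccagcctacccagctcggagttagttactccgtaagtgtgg
Tfcp2l1 promoter, chr1:118627695-118627944, plus strand: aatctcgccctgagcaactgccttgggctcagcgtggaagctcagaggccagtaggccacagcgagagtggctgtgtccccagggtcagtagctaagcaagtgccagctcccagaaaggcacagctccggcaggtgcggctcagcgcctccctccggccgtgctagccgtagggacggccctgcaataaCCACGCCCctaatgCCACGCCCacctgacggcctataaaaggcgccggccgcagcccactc

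Prdm14 encodes a PR-domain regulator of the naive state and of primordial germ cells. It lies at chr1:13113428-13127163 on the minus strand and had 8 sites, 1 in MES, 4 in HB and 1 each in HE, HP and MAC. Its promoter site was 700 bp wide in HB and 1900 bp wide in HE, and MES listed none. The HE interval overlapped the HB interval and lay inside the gene, its edge 223 bp from the TSS. With a reach of 100 bp it was no promoter site, and Prdm14 kept its HB call alone. A region 5.09 kb upstream was listed in MES (300 bp) and HB (600 bp). The HB sites 53.6 kb downstream and 94 kb upstream, the HP site 27.5 kb upstream and the MAC site 61.6 kb upstream were each in 1 list. The sites at 27.5, 61.6 and 94 kb upstream lay in introns of the neighbouring gene Ncoa2.

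Lin28a encodes an RNA-binding protein that blocks maturation of let-7 microRNAs and is kept in many early embryonic cells. It lies at chr4:134003330-134019196 on the minus strand and had 11 sites, of which MES listed 3, HB 4, HE 2, HP 2 and MAC none. Its promoter site was 1000 bp wide in MES and 1100 bp in HB. In HE an interval of 3800 bp covered the promoter, from chr4:134016708 to 134020507, and only 3 of the 33305 HE sites were as wide or wider, itself included. Another HE interval of 1900 bp lay 332 bp from an internal start and counted as a promoter site. The HP site (800 bp) had its edge 819 bp upstream of a start that is annotated but not curated, and it was no promoter site when curated starts alone were used. It overlapped the wide HE interval. Inside the gene a region 6.88 kb past the curated start was listed in MES (900 bp), HB (1200 bp) and HP (600 bp). The HE interval of 1900 bp overlapped all 3 of these sites. A region 17.3 kb upstream was listed in MES (400 bp) and HB (400 bp). The promoter region of MES and HB was the only 1 of the 51 with the T-box motif AGGTGTGA, the word of Brachyury and its relatives, which 2.26% of all regions held. This motif lay outside the central 200 bp.

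Dppa4 encodes a small nuclear protein of pluripotent and germ cells. It lies at chr16:48283735-48294292 on the plus strand, and no list held a promoter site for it. Its only region lay 30.7 kb upstream and was listed in HB (300 bp), HE (1600 bp) and HP (1000 bp), not in MES or MAC. That pattern was found for 0.78% of all merged regions, and of the 51 Esrrb had the other region with it. The middle of the region is shown because it held 3 GATA motifs (AGATAA, at bases 29 to 34, 134 to 139 and 282 to 287) beside a RUNX motif (TGTGGT, bases 55 to 60) and a KLF motif (opposite strand, bases 163 to 170), all in capitals. Over all merged regions 23% held the GATA motif, 33.2% the RUNX motif and 21.3% the KLF motif at least 1 time in 500 bp.
Dppa4 upstream region, chr16:48252878-48253177, plus strand: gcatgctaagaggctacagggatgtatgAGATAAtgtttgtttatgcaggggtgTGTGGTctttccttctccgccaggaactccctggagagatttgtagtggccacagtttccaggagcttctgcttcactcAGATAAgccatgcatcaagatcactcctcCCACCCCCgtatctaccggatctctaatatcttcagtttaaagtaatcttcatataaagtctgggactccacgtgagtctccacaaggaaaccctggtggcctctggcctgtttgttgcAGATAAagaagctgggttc

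**Figure D2:**
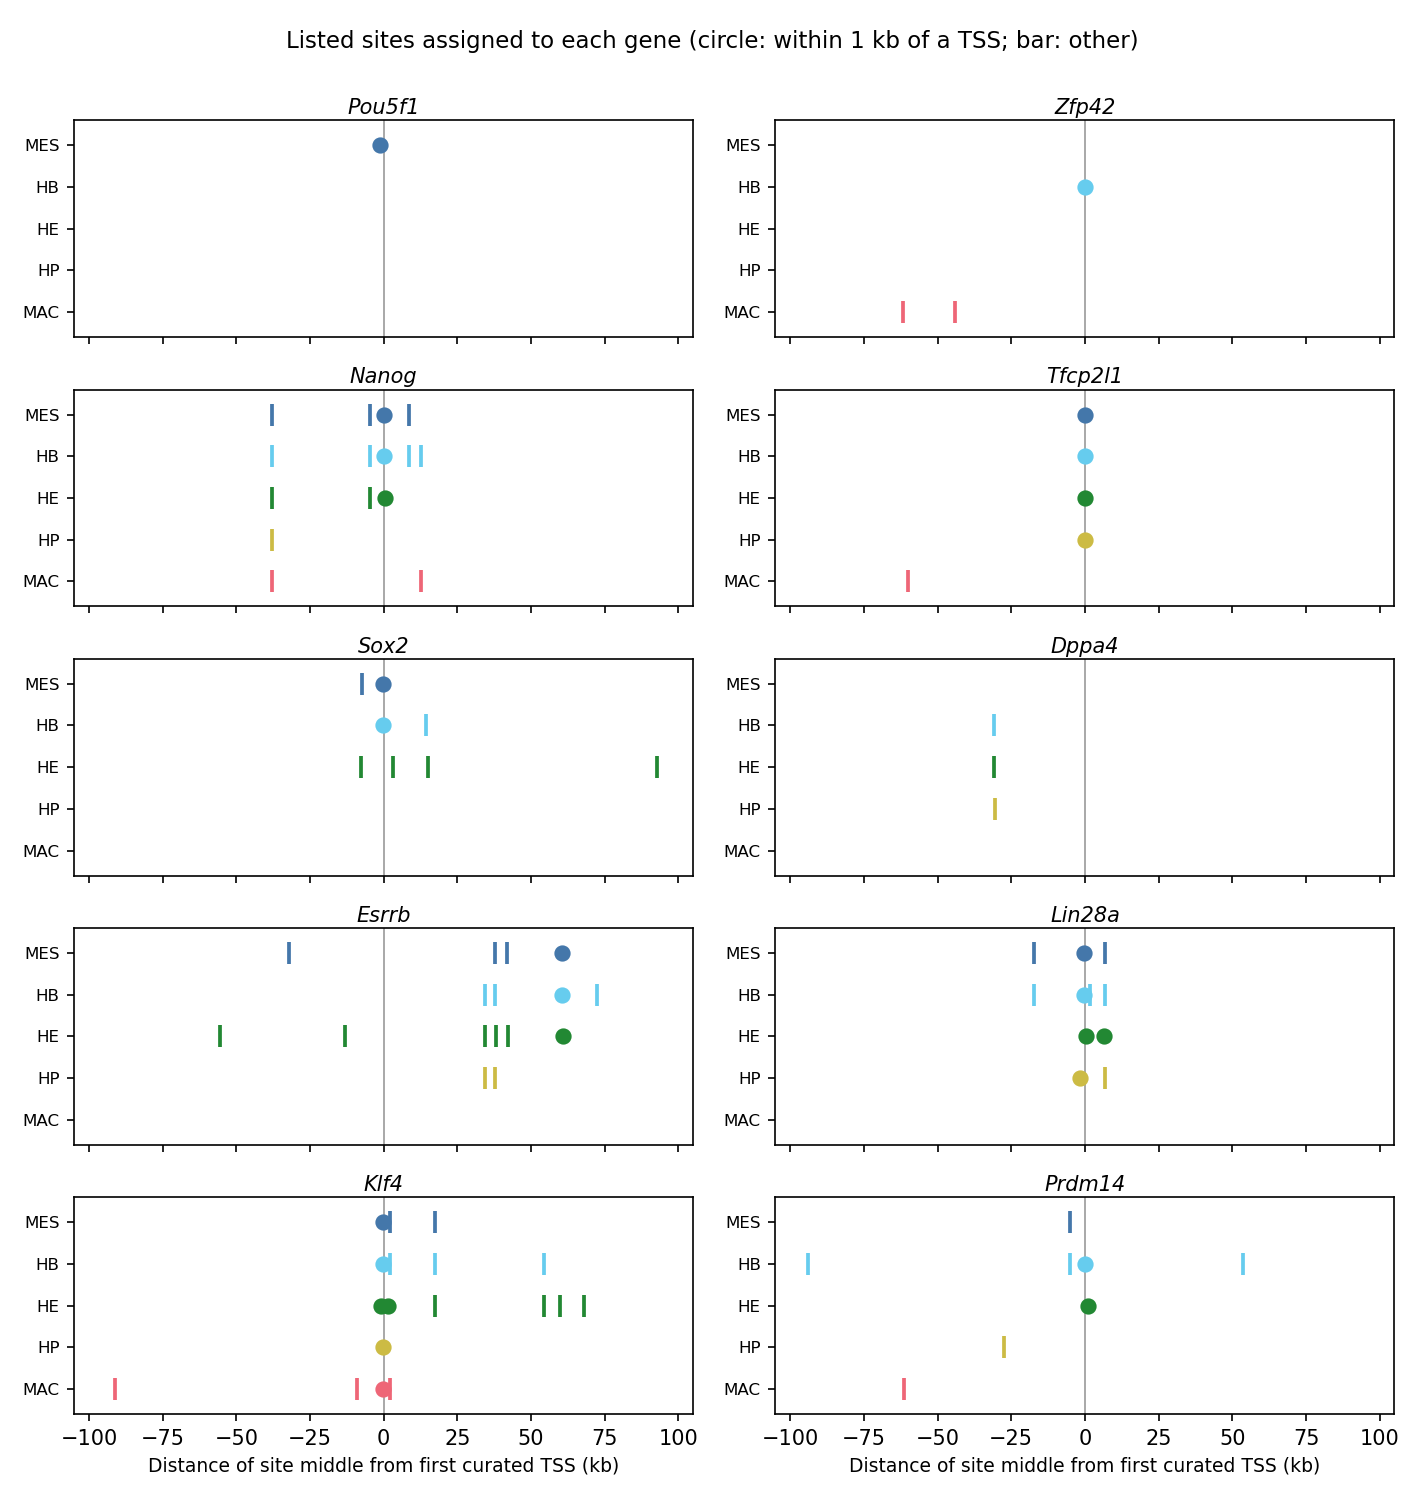
Middles of the 88 listed sites of the 10 genes, by distance in kb from the first curated TSS (negative upstream) on the horizontal axis and by stage on the vertical axis. Circles are sites within 1 kb of any TSS and bars are other sites, coloured by stage. The Nanog region 37.9 kb upstream stands in all 5 rows, the Esrrb circles lie at an internal start, and within this range the Klf4 bars of MAC outside the gene lie upstream while those of HB and HE lie downstream.

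Summed over the 10 genes MES listed 19 sites, HB 26, HE 24, HP 9 and MAC 10. Per 1000 sites listed, this was 0.866 (MES), 1.05 (HB), 0.721 (HE), 0.507 (HP) and 0.267 (MAC), so that the order of MAC and HP turned once the length of the lists was taken into account. The mean number per gene was 1.9 (MES), 2.6 (HB), 2.4 (HE), 0.9 (HP) and 1 (MAC). Over all genes the means were 1.05, 1.17, 1.52, 0.871 and 1.69. The 10 genes stood above the mean of all genes through HE, close to it in HP and below it in MAC. At least 1 site away from the promoter was listed by MES for 6 genes, by HB for 7, and by HE, HP and MAC for 5 each. The shares over all genes were 27.2% (MES), 29.4% (HB), 38.8% (HE), 22.5% (HP) and 44.2% (MAC). In MAC the members were therefore near the share of all genes for these sites and far under it for promoter sites. Sites below the median width of their list made up 13 of 19 of the genes' sites (MES), 17 of 26 (HB), 13 of 24 (HE), 5 of 9 (HP) and 6 of 10 (MAC). In the whole lists the shares below the median were 49.6%, 43%, 46%, 48.7% and 49%, so the members' sites were narrower mainly in MES and HB.

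**Figure D3:**
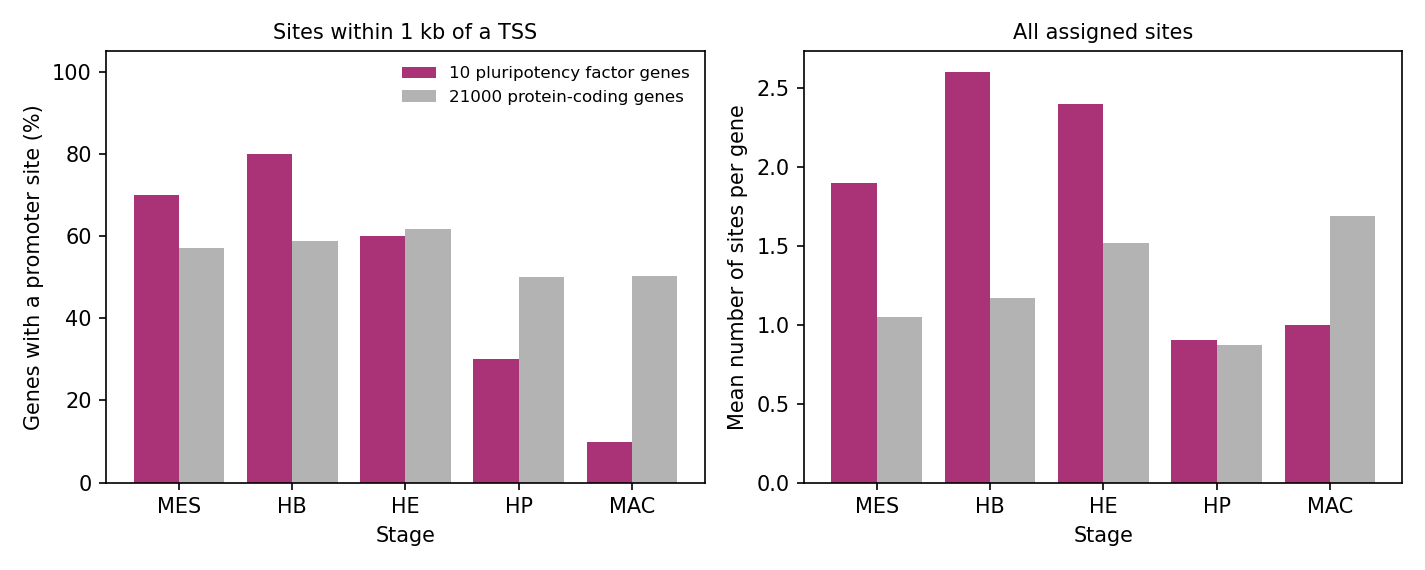
Left, share of genes in percent with a listed site within 1 kb of a TSS in each stage. Right, mean number of assigned sites per gene. Purple bars are the 10 pluripotency factor genes and grey bars all 21000 protein-coding genes with a curated start, with 1 list per stage and so no error bars. The purple bars fall from 8 of 10 genes in HB to 1 of 10 in MAC, and from 2.6 to 1 site per gene.

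Merging the 5 lists gave 51 regions for the 10 genes among 68846 in all. Of the 51, 31 were in a single list, which was 60.8% against 60.2% of all regions. Regions in HE alone numbered 13 (25.5% against 17.1% of all), in HB alone 7 (13.7% against 5.65%) and in MAC alone 6 (11.8% against 31%). Regions in MES and HB numbered 5 (9.8% against 4.72%), and regions in MES, HB and HE 4 (7.84% against 2.68%), which were the Nanog promoter, the Nanog region 4.66 kb upstream, the Esrrb internal promoter and the Klf4 region 17.5 kb downstream. In MES or HB but not MAC there were 26 regions, 51% against 24.1% of all. MAC held 10 of the 51, 19.6% against 54.4%. The 500-bp windows split some wide HE intervals from the sites they cover. When the deposited intervals themselves were joined wherever they overlapped, there were 43 regions, 21 of them in a single list (48.8% against 57.6% of all) and 2 in all 5 (4.65% against 14.9%), the second being the Klf4 promoter. By this count 7 regions were in HE alone, 16.3% against 15.4% of all, so the larger share in HE alone was lost, while 4 were in HB alone (9.3% against 5.32%) and 6 in MAC alone (14% against 31.1%).

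**Figure D4:**
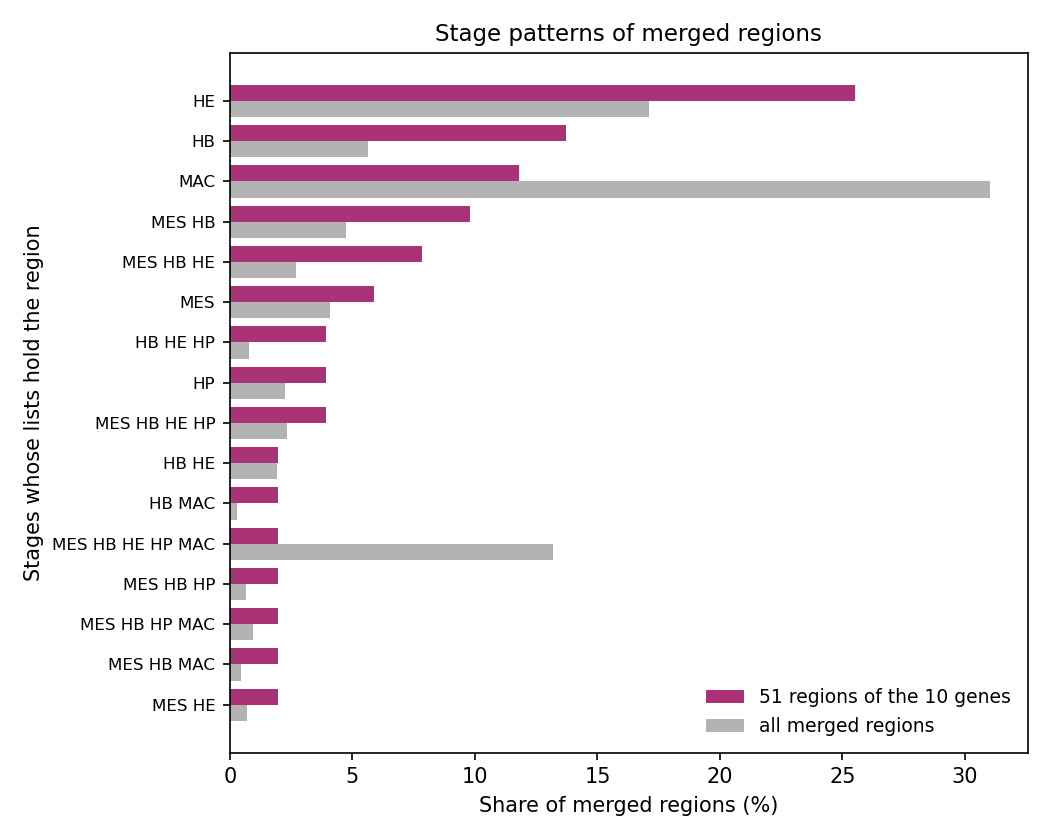
Share in percent of merged regions (horizontal axis) by the set of stages whose lists held them (vertical axis), for the 51 regions of the 10 genes in purple and all 68846 regions in grey. Regions in MAC alone are 11.8% of the purple and 31% of the grey bars, and regions in all 5 stages are 1.96% and 13.2%.

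The motifs searched in the central 500 bp of the 51 regions were near their shares over all regions for most words. The octamer was in 1 of 51 (1.96% against 2.45% of all), the SOX motif in 11 (21.6% against 21.7%), the GATA motif in 12 (23.5% against 23%) and the RUNX motif in 14 (27.5% against 33.2%). The KLF motif was in 16 (31.4% against 21.3%). The ESRRB motif TCAAGGTCA was in none (0.973% of all), nor was a SOX motif followed by the octamer within 3 bases (3 of 68842 regions). Words this rare could be missing from 51 regions whatever their role, so nothing follows from either absence. In the printed Nanog promoter the SOX motif is followed, on its own strand, by A and ATGCAAAA. This differs from the octamer in its last base and so was not counted. Both strands were searched and only exact words counted, and the SOX and octamer words are part of the joined motif. CpG-rich sequence, with a GC share of at least 0.5 and an observed to expected CpG ratio of at least 0.6, made up 10 of the 51 regions, 19.6% against 18.2% of all.

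The values closest to the limits of the rule were as follows. Just inside 1 kb stood the Pou5f1 site of MES at 841 bp, and just outside it the HB site of Lin28a at 1201 bp, which counted as another site because it lies inside the gene. Just inside 100 kb stood the HB site of Prdm14 at 93984 bp, and just outside it the MAC site of Tfcp2l1 at 102359 bp.

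Among genes with the same stages of promoter sites, likeness was measured as the sum over the 5 stages of the absolute differences in the number of sites. Nanog, with 4, 5, 3, 1 and 2 sites from MES to MAC, was nearest to Mesp1, a mesoderm factor, with 5, 5, 3, 1 and 2, among 829 genes. Lin28a was nearest to Ncam1, which had the same numbers in every stage, among 817. Esrrb was nearest to Col13a1 and Prdm14 to Tinagl1, each at a sum of 2, and Klf4 to Gpatch2l and Sh3rf1, each at 1. For Sox2 12 genes tied at 3, and for Tfcp2l1 36 genes tied at 0, so neither had a nearest gene.

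Other genes of the network were counted in a naive list of 17 partners and targets and a primed list of 10, the primed state being that of the epiblast before gastrulation. In the naive list a promoter site was listed for 9 genes by MES, 9 by HB, 8 by HE, 6 by HP and 5 by MAC. Of the 17, 5 had it in all 5 stages (Tbx3, Klf2, Klf5, Tet1 and Tet2), 7 in none (Nr0b1, Tdgf1, Dppa2, Dppa3, Dppa5a, L1td1 and Tcl1) and 5 in MES or HB but not MAC (Nr5a2, Sall4, Fgf4, Utf1 and Gdf3). In the primed list the numbers were 5 (MES), 7 (HB), 5 (HE), 1 (HP) and 0 (MAC). Of these 10, 7 had a promoter site in MES or HB but not MAC (Otx2, Fgf5, Dnmt3b, Pou3f1, Zic2, Nodal and Lefty1) and 3 had none (Sox3, Foxd3 and Lefty2). The class held 13.8% of all genes, and the lists were counted with all listed sites alone.

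The sorting markers followed the labels in part. T, which encodes Brachyury, had a site at its promoter in both MES and HB. Tek (Tie2) had it in HE, Itga2b (CD41) in HP and also in the CD41- HE cells, Kit in every stage but MAC and Itgam (CD11b) in MAC, while Kdr (Flk1) had it in all 5 stages, including the Flk1- MES cells. Of the macrophage genes Csf1r, Adgre1, Cd68 and Lyz2, 4 had a promoter site in MAC and Cd68 alone in the other stages, and of the blood factors Tal1, Runx1, Spi1 and Gata1, 1 had it in MES, 2 in HB and 3 from HE on. The feeder markers Col1a1, Col1a2, Col3a1 and Thy1 had a promoter site for 3 of 4 genes in MES, HB and HE, 1 in HP and 0 in MAC, which is the same direction over the stages as in the 10 genes. Col3a1 had none in any list. Collagen genes and Thy1 are also used by mesodermal cells, so these markers cannot tell feeder cells from mesoderm. MES and HB were sorted on Bry:GFP, a reporter carried by the ES cell line, and HE on Tie2 and cKit. No value of sort purity was used here. The part of feeder cells or of remaining undifferentiated ES cells in the members' sites was not tested.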

How the data were processed

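DNaseI-seq was done on 5 sorted populations. Per the study's methods, the authors trimmed adapters with CutAdapt, aligned reads with Bowtie to mm10, kept uniquely aligned reads, dropped duplicates (Picard) and ran the peak caller DFilter on 100 bp bins. HOMER is also named in the submitters' processing notes, and versions are not given in the sources used here. The deposited files hold the start and end of each site and no count or score. Every width was a multiple of 100 bp, so positions are precise to that step, and depth is unknown.

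Gene models were those of RefSeq for GRCm38.p6, a C57BL/6J genome, while the cells are of strain 129. Nearest genes were found from the middle of a site to curated mRNA starts. Merging followed the study's 500 bp windows and minimum overlap (25% of a window), with the middle of a site in place of its summit. Promoter sequences came from a RefSeq table that matched 8 of the 10 genes (not Dppa4 or Prdm14). Motifs were exact words on both strands. The CTCF motif was added after the sites had been seen. All 10 genes are named, and 1 gene of the wider lists is not reported here. Singly described regions are those within 10 kb of a TSS, in 3 or more stages or in most stages for a gene, and the others were added after their values had been seen. The members, lists and alternatives were chosen with earlier results of these data known. Python 3.11.15, numpy 2.4.6 and matplotlib 3.10.9 were used, and the steps were tested on simulated data. Stages were compared by counts, with no test. Alternatives were the promoter reach, curated starts only, stricter or equal-length lists, gene bodies for the nearest gene, reaches of 50 and 200 kb, other merging rules and a 200 bp motif window.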

Additional observations from a re-analysis of the deposited data

How the results depend on the processing

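No paired analysis was possible because each stage has 1 list and no test was run. Each result was recomputed under its alternatives, and 56 values stayed within 1.5 times the reported count while 28 did not. Width mattered most. Without the sites narrower than their list's median, the genes with a promoter site numbered 4 (MES), 3 (HB), 4 (HE), 1 (HP) and 1 (MAC), below the share of all genes in each stage. Other sites then numbered 2 (MES), 6 (HB), 6 (HE), 3 (HP) and 3 (MAC). Under that choice 3 genes had a promoter site in MES or HB and none in MAC, and 23 regions were left, 9 of them in MES or HB and not in MAC (39.1% against 21.9% of all). With all lists shortened to the length of HP by width there were 9 other sites in HB, 6 in HE and 3 in MAC, and 30 regions, 18 of them in MES or HB and not in MAC (60% against 33.6%). Neither choice left a region in all 5 lists (0 of 23 and 0 of 30). A reach of 50 kb gave 5 other sites in MAC and a reach of 200 kb gave 17. A promoter reach of 2 kb, curated starts alone and the nearest gene body kept every count within 1.5 times. Narrowing the motif window to 200 bp left 9 of 51 regions with the KLF motif (17.6% against 9.6% of all) and 4 with the SOX motif (7.84% against 9.6%). The GATA motif was left in 4 (7.84% against 10.5%) and the RUNX motif in 7 (13.7% against 16.1%). The octamer and the T-box motif were left in 0 regions each, against 1.04% and 0.921% of all. With 1 list per stage and no depth, a missing site may lie just under a caller's threshold, which was not tested.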
